A study of Arabidopsis thaliana with 39 samples.

Results

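The regions described here are the pseudogenes and transposable element (TE) genes that lie on the chromosome arms of *Arabidopsis thaliana*. A pseudogene is a disabled copy of a gene, and a TE gene is a gene model that belongs to a transposon or a retrotransposon. The members are the nuclear genes of these types whose identifiers lie outside AT1G35000-AT1G43000, AT2G05000-AT2G13000, AT3G30000-AT3G44000, AT4G03500-AT4G08500 and AT5G28000-AT5G36000, which are windows around the centromeres of the 5 chromosomes. This choice used the annotation only and no measured value. It gave 1895 members, 1210 TE genes and 685 pseudogenes, of 4829 pseudogenes and TE genes in the nucleus and of 37184 genes in the counts. The other 2934 lie in the windows and are called pericentromeric here. The chromosomes held 521, 444, 388, 232 and 310 members, from chromosome 1 to chromosome 5. In the reference these types stand under 1 heading, and the split into TE genes and pseudogenes matched the types used by the study for 697 of 697 genes that could be checked.

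Plants keep most transposons silent through DNA methylation. In RNA-directed DNA methylation, RNA polymerase IV transcribes such loci, the RNA-dependent RNA polymerase RDR2 makes the transcript double-stranded and the Dicer enzyme DCL3 cuts it into short interfering RNAs (siRNAs), which guide Argonaute proteins and the methyltransferase DRM2 back to matching DNA. Pseudogenes can also give rise to siRNAs, for example where an inverted copy pairs with its parent gene. On the arms these loci lie between active genes, while the pericentromeric ones lie in dense heterochromatin, where methylation is also kept by enzymes that do not need siRNAs.

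Small RNAs were sequenced from whole plants in 39 libraries, 3 biological replicates for each of 13 groups, to ask whether faults in mRNA maturation and decay lead to siRNAs. Set 1 holds wild-type Col-0 (1), *lsm1a lsm1b* (both genes for LSM1, an activator of mRNA decapping), *ncb-4* (coilin, which builds Cajal bodies), *upf1-5* and *upf3-1* (nonsense-mediated decay). Set 2 holds wild-type Col-0 (2), *fy-2* and *rsr1-2* (mRNA cleavage and polyadenylation), *pab2 pab4* (poly(A)-binding proteins), *ahg2-1* (a poly(A)-specific ribonuclease) and *ccr4a* (a deadenylase), and the plants of these sets were seedlings of 14 days on MS medium. Set 3 holds *cstf64-2*, which lacks another cleavage factor, and wild-type Col-0 (3), plants of 21 days on soil that were grown together, and the wild-type data of this set came from an earlier submission. All groups are in the Col-0 background and each mutant stands for 1 allele or 1 double mutant. The *cstf64-2* plants were picked as homozygous by their appearance, and *fy-2* and *upf1-5* are weak alleles. In whole plants, fewer cells of a type and less small RNA per cell cannot be told apart.

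The counts on genes were 6437260 to 7968503 per library in set 1, 7767365 to 9151932 in set 2 and 2015212 to 2323991 in set 3. In sets 1 and 2 identical copies had the same count in each library, as when a read is counted at each of its places, and in set 3 they did not. So no level was compared between set 3 and the others, but the ranking by mean RPM over the wild types draws on all 3 sets. Levels are given as RPM, the usual read rate per unit of depth, here relative to the counts on all genes after TMM scaling. The TMM factors of Col-0 (1) were 0.684 to 0.701 against 0.946 to 1.33 in the mutants of set 1. Replicate 3 of Col-0 (2) stood apart from the other 2, with a factor of 0.958 against 0.771 and 0.783. A total of 3 counts equals 0.263 to 0.571 RPM in sets 1 and 2 and 1.2 to 1.52 RPM in set 3. Small RNA counts do not measure the mRNA of the mutated genes, so the genotype labels were not checked here.

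Stretches of 6 members are printed here because the results turn on them and because their letters show where a small RNA can be placed. Each is 300 bases of the RefSeq sequence of TAIR10.1, 5′ to 3′ on the strand of the gene. Capitals mark bases that lie in a run of 24 bases found at more than 1 place in the nuclear genome, and lower case marks bases that lie in unique runs only. Shown are the 300 bases of each gene with the most capitals, or its 5′ end where there are none. A stretch can thus hold a larger share of capitals than its gene. AT2G32291 (chr2:13717322-13717621, minus strand), a pseudogene of the F-box gene AT2G31470, AT1G64035 (chr1:23755506-23755805, minus strand), AT3G22955 (chr3:8138497-8138796, plus strand) and AT3G26775 (chr3:9848178-9848477, minus strand) are members whose counts changed in several mutants. AT1G58889 (chr1:21801363-21801662, minus strand) has a near-identical copy, and AT4G01525 (chr4:660944-661243, plus strand) is *SADHU5-1*.
AT2G32291: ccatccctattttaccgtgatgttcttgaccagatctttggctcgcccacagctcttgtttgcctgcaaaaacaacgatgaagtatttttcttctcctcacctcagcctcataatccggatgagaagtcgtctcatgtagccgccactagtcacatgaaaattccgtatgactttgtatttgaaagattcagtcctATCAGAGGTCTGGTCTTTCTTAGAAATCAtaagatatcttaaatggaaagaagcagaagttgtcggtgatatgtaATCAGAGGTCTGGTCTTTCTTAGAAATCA
AT1G64035: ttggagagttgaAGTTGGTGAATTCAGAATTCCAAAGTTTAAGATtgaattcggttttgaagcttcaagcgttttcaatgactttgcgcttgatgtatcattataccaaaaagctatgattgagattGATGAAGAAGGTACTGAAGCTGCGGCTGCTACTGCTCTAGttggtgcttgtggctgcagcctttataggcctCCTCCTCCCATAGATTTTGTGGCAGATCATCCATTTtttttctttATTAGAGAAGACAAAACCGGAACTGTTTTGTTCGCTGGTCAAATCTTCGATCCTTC
AT3G22955: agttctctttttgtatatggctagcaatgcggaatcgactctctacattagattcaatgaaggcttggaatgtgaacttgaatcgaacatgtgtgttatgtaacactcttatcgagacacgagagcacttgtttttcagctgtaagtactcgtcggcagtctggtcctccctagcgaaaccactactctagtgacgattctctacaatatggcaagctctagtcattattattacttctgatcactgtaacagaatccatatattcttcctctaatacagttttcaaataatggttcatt
AT3G26775: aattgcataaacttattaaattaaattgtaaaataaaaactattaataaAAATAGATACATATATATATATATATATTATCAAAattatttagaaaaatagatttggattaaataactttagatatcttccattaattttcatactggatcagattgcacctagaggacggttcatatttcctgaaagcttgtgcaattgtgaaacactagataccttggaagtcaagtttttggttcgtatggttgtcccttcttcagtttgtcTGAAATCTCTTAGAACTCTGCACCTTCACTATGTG
AT1G58889: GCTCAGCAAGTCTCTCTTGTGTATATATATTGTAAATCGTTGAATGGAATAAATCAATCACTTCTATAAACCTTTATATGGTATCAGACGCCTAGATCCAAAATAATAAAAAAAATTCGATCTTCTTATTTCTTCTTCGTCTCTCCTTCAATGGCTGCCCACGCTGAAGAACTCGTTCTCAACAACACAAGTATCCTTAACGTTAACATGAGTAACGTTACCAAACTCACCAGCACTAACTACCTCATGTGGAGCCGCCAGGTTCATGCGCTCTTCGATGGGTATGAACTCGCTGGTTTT
AT4G01525: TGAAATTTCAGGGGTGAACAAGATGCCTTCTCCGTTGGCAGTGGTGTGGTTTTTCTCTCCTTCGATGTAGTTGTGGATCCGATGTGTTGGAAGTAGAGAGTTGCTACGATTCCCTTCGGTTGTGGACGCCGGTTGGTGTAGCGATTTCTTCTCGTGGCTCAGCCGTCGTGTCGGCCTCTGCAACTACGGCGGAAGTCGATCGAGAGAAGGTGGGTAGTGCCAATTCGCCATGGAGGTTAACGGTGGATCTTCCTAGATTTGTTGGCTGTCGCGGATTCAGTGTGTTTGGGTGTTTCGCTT
In the stretch of AT3G22955 0 bases lie in repeated runs. In that of AT2G32291 58 bases do, in 2 runs with the same letters, so that each is a second place of the other within the gene. The capitals do not show whether these runs also occur outside it. The stretches of AT3G26775 and AT1G64035 have 70 and 165 such bases, while the whole genes have 95 of 1434 and 272 of 2241. All 300 bases are repeated in AT1G58889 and in AT4G01525, so a read from there has more than 1 place. Over the whole genes 4568 of 4569 and 711 of 889 bases are repeated.

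The TE genes and the pseudogenes differed in size and in copy number. TE genes had a median of 1884 exon bases (quartiles 732 and 3649), and pseudogenes 647 (370 and 1183). A median of 76.5% of the runs of 24 bases in TE genes occurred once in the nuclear genome, against 96.3% in pseudogenes and 65.4% in pericentromeric members of the same types. The nearest protein-coding gene was a median of 1268 bases from a TE gene, 435 bases from a pseudogene and 9958 bases from a pericentromeric one. Of the members, 164 overlapped another gene, and reads of such pairs cannot be told apart without the strand.

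Most TE genes had small RNAs in wild-type plants, and 36.9% to 50.1% of the pseudogenes had none. In Col-0 (1) the median level per kb of exon was 3.63 RPM for TE genes, 0 for pseudogenes and 2.46 RPM for pericentromeric genes, with 104 TE genes (8.6%) and 343 pseudogenes (50.1%) at 0 counts. In Col-0 (2) the medians were 2.45, 0.0352 and 1.75 RPM per kb, and in Col-0 (3) 32.4, 0.279 and 24.4 RPM per kb. At 0 counts were 327 pseudogenes (47.7%) in Col-0 (2) and 253 (36.9%) in Col-0 (3). There were 84 members without a count in any library.

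Among the TE genes, the level per kb was lower where more of the sequence was unique. In Col-0 (1) the median fell from 8.01 RPM per kb in the 121 TE genes with up to 10% unique runs of 24 bases to 6.31, 3.44 and 1.51 RPM per kb in the 353, 226 and 510 genes of the next classes. Col-0 (2) had the same order, from 5.35 to 1.13 RPM per kb. In Col-0 (3) the lowest class had 35.2 RPM per kb, the next 37.6 and the most unique one 23.8. A read counted at each of its places adds to every copy in sets 1 and 2, and its part in the order was not tested.

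**Figure D1:**
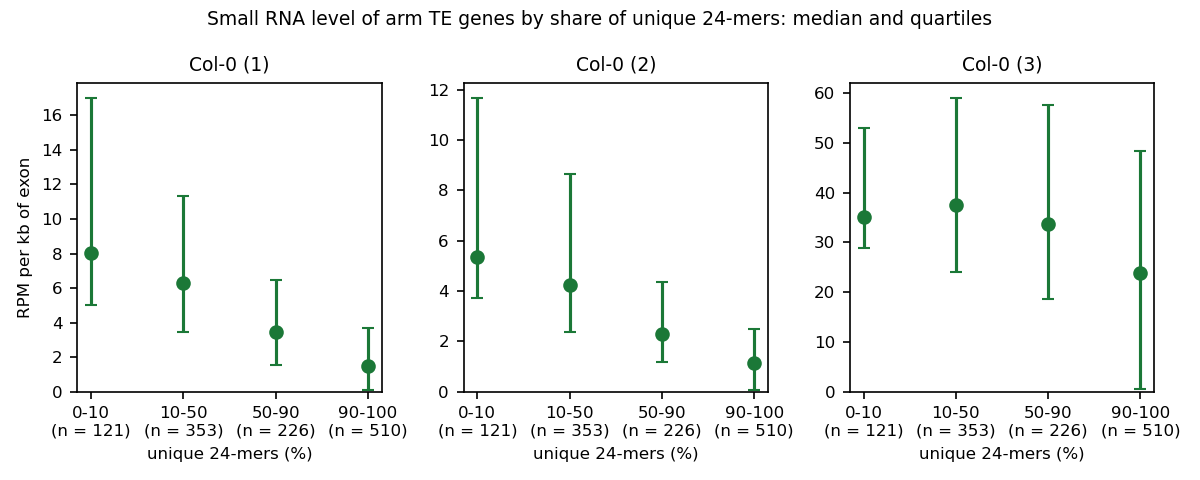
Small RNA level of chromosome-arm TE genes by the share of their runs of 24 bases that are unique in the nuclear genome. The y axis is RPM per kb of exon (mean of the 3 libraries of each wild type, a linear scale of its own in each panel), points are medians over genes and bars are quartiles; the median fell from 8.01 to 1.51 RPM per kb in Col-0 (1) and from 35.2 to 23.8 in Col-0 (3).

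Small RNAs of the members were spread over many loci. In Col-0 (1) 123 members held 50% of the members' RPM and the top 10 held 14.4%, and in Col-0 (3) these figures were 181 members and 8.33%. TE genes gave 84.9%, 83.6% and 90.3% of the members' RPM in the wild types of sets 1, 2 and 3.

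The 6 members with the highest mean RPM over the wild types were 2 pseudogenes and 4 TE genes. AT1G24792 and AT1G25209, both described as pseudogenes of the UDP-3-O-acyl N-acetylglucosamine deacetylase family and F-box proteins, share 89.3% of their runs of 24 bases and a run of 1017 bases. AT1G24792 had 2558, 3066 and 2492 counts in Col-0 (1) and 503.0 RPM ± 69.8 (SD, n = 3). AT1G25209 had 2569, 3070 and 2493 counts, so that the pair differed by at most 11 counts there. Neither was called in any mutant. AT1G43740 and AT1G43750, TE genes with 36.5% and 31.9% unique runs, share 54.3% of them and had 312.1 RPM ± 54.2 and 307.4 RPM ± 52.3 (SD, n = 3) in Col-0 (1). AT1G43060, a TE gene with 14623 exon bases, and AT5G38383, with 8937, had 99.5 RPM ± 12.1 and 89.9 RPM ± 9.68 there. In Col-0 (2) these last members had 76.1 and 61.5 RPM, and in Col-0 (3) 1331 and 1189 RPM. AT1G43740 and AT1G43750 had 165.3 and 172.5 RPM in Col-0 (2) and 1892 and 1825 RPM in Col-0 (3). The place of these 4 TE genes in this order thus comes mostly from Col-0 (3).

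Within set 1, the TE genes among these 6 were highest in *upf3-1*. AT1G43740 and AT1G43750 had counts above all wild-type libraries in the other mutants of sets 1 and 2 as well, and were not called there. In *upf1-5* the log2 fold changes of AT1G43740, AT1G43750 and AT1G43060 were 0.97, 0.94 and 0.79 (adjusted p = 0.000586, 0.000788 and 0.00222). That of AT1G43740 in *ahg2-1* was 0.74 (0.00559). AT1G43740 had 6491, 5103 and 4941 counts in *upf3-1* against 1554, 1490 and 1996 in Col-0 (1), with no overlap. Its log2 fold change was 1.13 ± 0.16 (SE, adjusted p = 6.14e-06). AT1G43750 and AT1G43060 rose by 1.10 ± 0.16 and 1.06 ± 0.151, and AT5G38383 had 0.70 with an adjusted p of 0.000917, under the fold threshold. The call of AT1G43060 was lost on its fold without *upf3-1* replicate 1 (log2 fold change 1.00) and without Col-0 (1) replicate 1 (0.96), and that of AT1G43750 without the same libraries (0.99 and 0.98). In *cstf64-2* these 4 had fewer counts than all libraries of Col-0 (3), as in AT5G38383 with 1531, 1504 and 1290 against 2229, 2474 and 2511 (log2 fold change -0.97), and none passed the fold threshold.

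The summed level of the members was little changed by most mutations on the TMM scale. It was 20981 RPM ± 1114 in Col-0 (1) and 23492 ± 612 in *lsm1a lsm1b* (SD, n = 3), a ratio of 1.12 with no overlap between the libraries. In *ncb-4*, *upf1-5* and *upf3-1* the ratios were 1.05, 1.04 and 1.08 and the libraries overlapped with Col-0 (1). In set 2 Col-0 (2) had 14183 RPM ± 999, and *pab2 pab4* (ratio 1.22) and *rsr1-2* (1.19) lay above all its libraries, while *ahg2-1* (1.07), *ccr4a* (1.04) and *fy-2* (1.11) overlapped with it. *cstf64-2* had 0.94 times the level of Col-0 (3), with overlap. Col-0 (2) had 0.68 times the level of Col-0 (1), with no overlap. These ratios depend on the scale: with the library sizes of the study they were 1.81, 1.53, 1.40 and 1.68 in set 1, 1.49, 1.62, 1.30, 1.25 and 1.23 for *rsr1-2*, *pab2 pab4*, *fy-2*, *ahg2-1* and *ccr4a*, and 1.12 for *cstf64-2*.

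The ratio of the summed level of the members to that of the pericentromeric genes of the same types does not depend on the scale, and it lay below all libraries of the wild type in 8 mutants. It was 0.74 ± 0.0442 (SD, n = 3) in Col-0 (1) and 0.67, 0.62, 0.61 and 0.58 in *lsm1a lsm1b*, *ncb-4*, *upf1-5* and *upf3-1*, each below all libraries of the wild type. In set 2 it was 0.73 ± 0.0137 in Col-0 (2), 0.59 in *ahg2-1*, and 0.69, 0.67 and 0.68 in *pab2 pab4*, *fy-2* and *rsr1-2*, all without overlap, and 0.71 in *ccr4a*, with overlap. The margin in *pab2 pab4* was narrow, with 0.7159 in its highest library and 0.7161 in the lowest of Col-0 (2). In *cstf64-2* the ratio was 0.64 ± 0.0109 against 0.55 ± 0.0268 in Col-0 (3), above all its libraries. In the 8 mutants with a lower ratio, the pericentromeric sum on the TMM scale was 1.216 to 1.375 times the wild type, above all its libraries. The sum of the members was 1.036 to 1.224 times the wild type there. The mutants of a set share their Col-0, so these ratios are not independent of each other, and no test was made of these sums.

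Single members were tested for each mutant against its own wild type by edgeR's quasi-likelihood test over all genes, with Benjamini-Hochberg adjustment. A call needed an adjusted p under 0.05 together with a log2 fold change above 1 or below -1. Of the 1895 members 1204, of which 1013 were TE genes, had enough counts to be tested in at least 1 mutant, and 691 were tested in none. Up in any mutant were 114 members (88 TE genes), down in any mutant 51 (25 TE genes), and 153 (12.7%) were called in either direction, beside 32.1% of all genes tested in at least 1 of the 10 mutants.

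In set 1, *upf3-1* had the most called members. There 38 members were up and 14 down of 1046 tested (3.63% and 1.34%), beside 4.39% and 7.76% of all genes. The median log2 fold change of the members was 0.13, against -0.02 over all genes tested. In *lsm1a lsm1b* 16 were up and 3 down of 1056 (1.52% and 0.284%), beside 2.2% and 5.46% of all genes, in *ncb-4* 7 up and 5 down of 1052 (0.665% and 0.475%), beside 3.35% and 7.27%, and in *upf1-5* 5 up and 8 down of 1030 (0.485% and 0.777%), beside 1.56% and 3.73%. The medians of the members were 0.18, 0.07 and -0.01, against -0.03, -0.02 and -0.04 over all genes. Without Col-0 (1) replicate 1 the count in *lsm1a lsm1b* was 7 up and 3 down. In *upf1-5* it was 1 up and 5 down without Col-0 (1) replicate 2, and 11 up and 10 down without Col-0 (1) replicate 3.

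In set 2 the largest counts were 23 up and 5 down of 1050 members in *pab2 pab4* (2.19% and 0.476%), beside 1.71% and 4.47% of all genes, and 20 up and 8 down of 1021 in *ahg2-1* (1.96% and 0.784%), beside 3.55% and 5.27%. In *rsr1-2* 15 were up and 3 down of 1040 (1.44% and 0.288%), beside 0.895% and 1.55%. *ccr4a* had 8 up and 2 down of 1028 (0.778% and 0.195%), beside 0.462% and 0.154%, and *fy-2* 6 up and 3 down of 1026 (0.585% and 0.292%), beside 0.493% and 0.703%. The median log2 fold changes of the members were 0.29, 0.09, 0.22, 0.03 and 0.11 in this order, against -0.05, -0.03, -0.07, -0.01 and -0.03 over all genes. The count in *rsr1-2* was 29 up and 3 down without Col-0 (2) replicate 3, the library that stood apart, and that in *fy-2* was 3 up and 1 down without *fy-2* replicate 2.

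In set 3, 29 members were up and 25 down of 1197 in *cstf64-2* (2.42% and 2.09%), beside 13.6% and 3.3% of all genes. The median was -0.04, against 0.00 over all genes. Of the protein-coding genes tested 27.5% were up, and 0.293% of the pericentromeric genes were up and 3.74% down. Of the pseudogenes tested in *cstf64-2*, 10 were up and 14 down of 185 (5.41% and 7.57%), and of the TE genes 19 up and 11 down of 1012 (1.88% and 1.09%), a difference that was not tested. Col-0 (2) differed from Col-0 (1) by 3 members up and 17 down of 998 (0.301% and 1.7%), beside 1.67% and 1.29% of all genes, a comparison of wild types of the same age and medium.

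The split of these calls rests on the scaling. With the library sizes of the study, the median of all genes moves by 0.24 to 0.69 on the log2 scale in the 10 mutants, and the members up and down became 340 and 2 in *lsm1a lsm1b*, 140 and 2 in *ncb-4*, 57 and 3 in *upf1-5* and 245 and 3 in *upf3-1*. In set 2 they became 48 and 6 in *ahg2-1*, 9 and 2 in *ccr4a*, 164 and 3 in *pab2 pab4*, 13 and 1 in *fy-2* and 83 and 3 in *rsr1-2*, and in set 3 47 and 16. With TMM factors from protein-coding genes only, the split was 48 and 2, 22 and 4, 17 and 5 and 81 and 8 in set 1, 48 and 6, 8 and 2, 77 and 4, 8 and 1 and 48 and 3 in set 2, and 24 and 71 in *cstf64-2*. The median of the members in *cstf64-2* was then -0.30, and 0.20 with the library sizes of the study, and that in *upf1-5* was 0.15 and 0.40. All members up on the TMM scale in a mutant were also up with the library sizes of the study, as follows from its upward shift in all 10 mutants. These scalings move all genes of a comparison by about the same amount, which was smaller than the fold threshold. So none of the 115 calls named in the text could change direction under them, and none did.

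**Figure D2:**
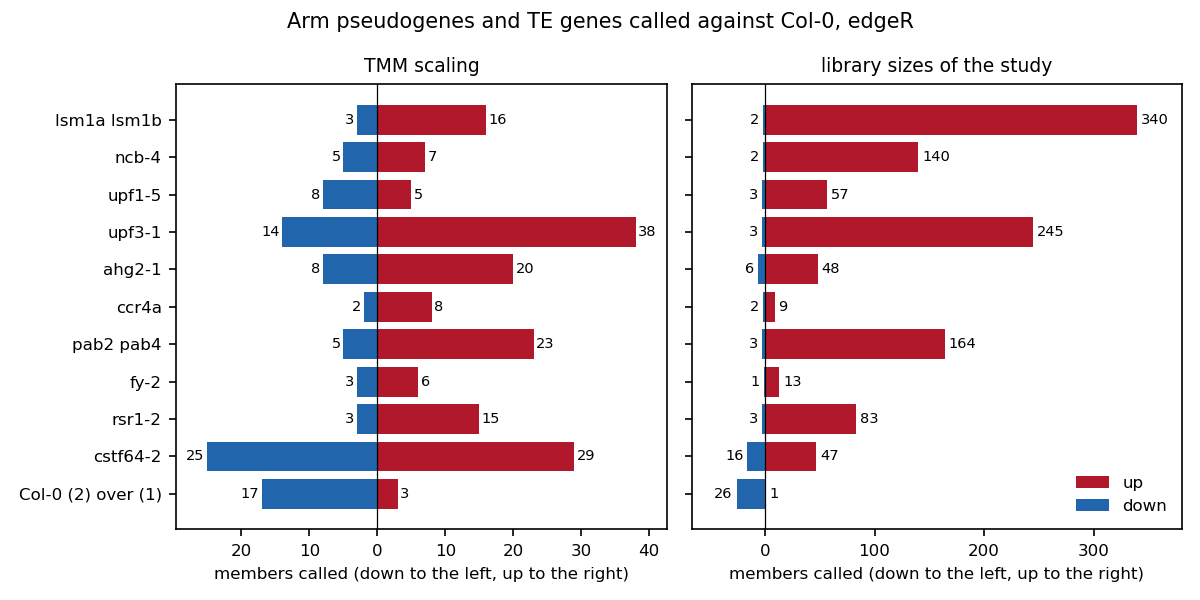
Number of chromosome-arm pseudogenes and TE genes called up (red, to the right) or down (blue, to the left) in each mutant against the Col-0 of its set, and in Col-0 (2) against Col-0 (1), by edgeR. The left panel uses TMM scaling and the right panel, on its own x axis, the library sizes of the study; in *lsm1a lsm1b* the members up went from 16 to 340.

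Most of the members up in *upf3-1* lay near the pericentromeric windows. Of the 486 members tested there within 1 Mb of a window, 28 were up, and 5 of 248 were up from 1 to 3 Mb and 5 of 312 beyond 3 Mb. The median log2 fold changes of these bands were 0.21, 0.14 and 0.01, and that of the pericentromeric genes was 0.41. So 28 of 38 members up (73.7%) lay within 1 Mb, where 46.5% of the tested members lay. In *upf1-5* the medians were 0.06, -0.03 and -0.07, and in *ahg2-1* 0.15, 0.05 and 0.04. Among members with at least 90% unique runs the medians in *upf3-1* were 0.22 within 1 Mb and 0.02 beyond 3 Mb.

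In *cstf64-2* the order was the other way round. The medians were -0.09, -0.02 and 0.01 from the nearest to the farthest band, and -0.26 in the pericentromeric genes. There 15 of the 25 members down lay within 1 Mb, where 552 of the 1197 tested members lay. Beyond 3 Mb lay 20 of the 29 members up and 358 of the tested members. In *pab2 pab4* the bands had nearly the same median, 0.30, 0.29 and 0.29, but 14 of 23 members up (60.9%) lay within 1 Mb, where 45.8% of the tested members lay. The share was also above that of the tested members in *upf1-5* (4 of 5 up) and *ahg2-1* (10 of 20). It was below in *lsm1a lsm1b*, *ncb-4*, *ccr4a*, *fy-2* and *rsr1-2*. The signs of the medians of the bands rest on the TMM scaling, with the shifts given above, and no test was made between bands.

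**Figure D3:**
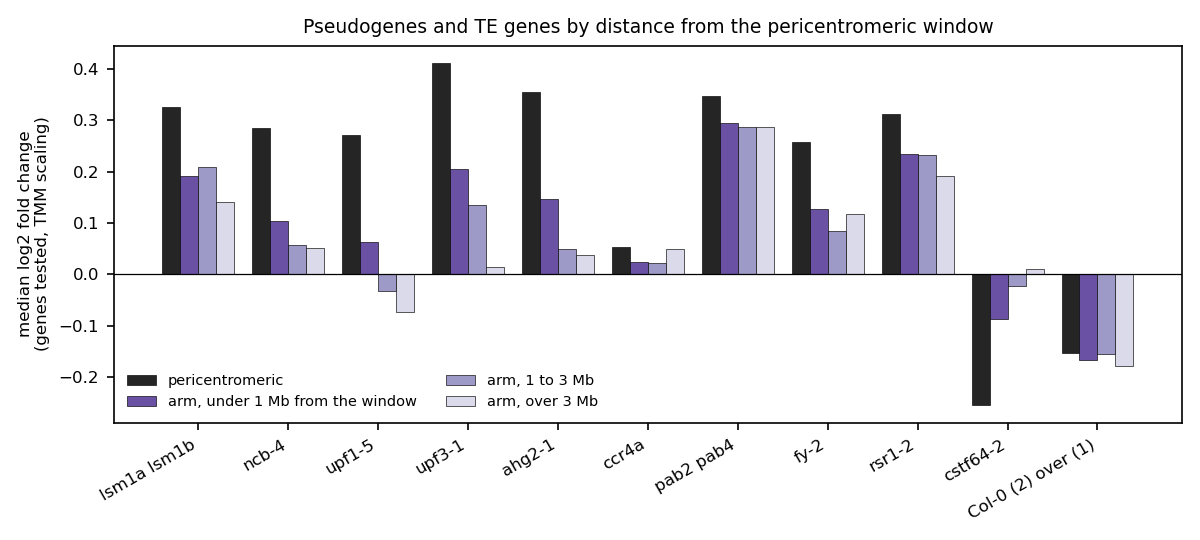
Median log2 fold change (y axis, TMM scaling) of pericentromeric pseudogenes and TE genes and of chromosome-arm members under 1 Mb, 1 to 3 Mb and over 3 Mb from the pericentromeric window, in each mutant against its Col-0 and in Col-0 (2) against Col-0 (1). Bars are medians over the genes tested, with no error bar; in *upf3-1* they fell from 0.41 to 0.01 with distance, and in *cstf64-2* they rose from -0.26 to 0.01.

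A few members were close to off in all libraries of a group and on in another group of its set. With at most 3 counts in each library of a group and at least 30 in each library of another, 7 members met this description, which was chosen after their values were seen. They were AT1G58889, AT1G59265, AT1G64035, AT2G32291, AT3G04605, AT3G22955 and AT5G52272. They were 1 of 845 members that were on in a group of set 1, 6 of 808 in set 2 and 1 of 1012 in set 3, with AT2G32291 in sets 1 and 2. Of the pericentromeric genes 0 of 1762, 0 of 1610 and 0 of 2261 met it, and of the protein-coding genes 10 of 2071, 11 of 2123 and 38 of 1801.

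AT2G32291, the F-box pseudogene, fell in 5 mutants across all 3 sets. It lies at chr2:13717189-13717655 on the minus strand, 187 bases from the nearest protein-coding gene, and 97.3% of its runs of 24 bases are unique. It shares 0% of them with AT2G31470, its parent in the annotation, and their longest common run has 19 bases. In set 1 it had 80, 71 and 67 counts in Col-0 (1) and 1, 1 and 0 in *lsm1a lsm1b*. Col-0 (1) was 174.0-fold higher (exact 95% interval for counting error only 47.6 to 1446, adjusted p = 2.73e-08). *ncb-4* was between them, with 34, 35 and 30 counts (log2 fold change -1.65 ± 0.199, adjusted p = 5.22e-06), and *upf1-5* and *upf3-1* had 87 to 116 and 66 to 106 counts and were not called.

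In set 2 the same pseudogene had 99, 100 and 129 counts in Col-0 (2) and 2, 3 and 3 in *ccr4a*, a log2 fold change of -5.58 ± 0.298 (adjusted p = 7.26e-13). In *rsr1-2* it had 10, 5 and 14 counts (-3.88 ± 0.267, adjusted p = 1.15e-11), while *ahg2-1*, *pab2 pab4* and *fy-2* had 83 to 215 counts and were not called. In set 3 it had 4, 3 and 2 counts in *cstf64-2* against 462, 290 and 288 in Col-0 (3) (-7.02 ± 0.293, adjusted p = 8.49e-08). AT2G32291 thus had no overlap with Col-0 in any of the 5 mutants, and these calls held when any 1 library was left out, with adjusted p-values of at most 6.19e-05.

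AT1G64035, a pseudogene without a description at chr1:23755496-23757736 (minus strand, 97.2% unique runs), fell in 8 of the 9 mutants of sets 1 and 2. In set 1 it had 16, 27 and 32 counts in Col-0 (1) against 3, 0 and 2 in *lsm1a lsm1b*, 3, 3 and 1 in *ncb-4*, 1, 1 and 1 in *upf1-5* and 0, 3 and 1 in *upf3-1*. The log2 fold changes were -4.47 ± 0.568 in *lsm1a lsm1b* (adjusted p = 7.31e-05), -3.86 ± 0.497 in *ncb-4* (1.11e-05) and -4.66 ± 0.587 in *upf3-1* (1.08e-06), and Col-0 (1) was 33.0-fold higher than *upf1-5* (counting interval 10.9 to 163.8, adjusted p = 3.74e-06). All 4 mutants lay below all libraries of Col-0 (1), which they share. The mean level in Col-0 (1) was 4.67 RPM ± 1.62 (SD, n = 3).

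In set 2 AT1G64035 had 49, 54 and 57 counts in Col-0 (2) and 1, 0 and 0 in *rsr1-2*, so that Col-0 (2) was 212.5-fold higher (counting interval 37.6 to 8444, adjusted p = 3.93e-11). *pab2 pab4* had 16, 15 and 3 counts (log2 fold change -2.73 ± 0.319, adjusted p = 4.55e-06), *fy-2* 10, 18 and 20 (-2.02 ± 0.269, adjusted p = 2.45e-05) and *ahg2-1* 32, 17 and 33 (-1.20 ± 0.233, adjusted p = 0.00119). The last was -0.98 with TMM factors from protein-coding genes and -0.94 with the library sizes of the study, under the fold threshold. Against Col-0 (1) the calls in *ahg2-1* (-0.21) and *fy-2* (-1.01, adjusted p = 0.0779) were lost. *ccr4a* overlapped with Col-0 (2), with 73, 51 and 48 counts. In set 3 *cstf64-2* had 146, 95 and 90 counts against 77, 79 and 43 in Col-0 (3) and was not called. The wild types differed too, with a log2 fold change of 1.03 ± 0.268 in Col-0 (2) over Col-0 (1), a call lost without Col-0 (1) replicate 1 (adjusted p = 0.106), Col-0 (1) replicate 2 (0.0503) or Col-0 (2) replicate 2 (0.0571), on its fold without Col-0 (2) replicate 1 (log2 fold change 1.00, before rounding under the threshold), in DESeq2 (0.97), without the filter (0.98), with TMM factors from protein-coding genes (0.90) and with the library sizes of the study (0.87).

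AT3G22955, a TE gene of 469 bases at chr3:8138497-8138965 with unique runs only, was near 0 in 1 wild type and on in the others. It had 0, 1 and 2 counts in Col-0 (2) and 27, 53 and 39 in Col-0 (1). In set 2 it had 34, 24 and 38 counts in *ahg2-1*, 56, 67 and 61 in *ccr4a*, 68, 57 and 66 in *fy-2*, 19, 32 and 26 in *rsr1-2* and 0, 0 and 0 in *pab2 pab4*. The ratios to Col-0 (2) were 27.5 (counting interval 9.12 to 135.6, adjusted p = 7.84e-06), 50.01 (16.9 to 244.7, 6.12e-09), 52.3 (17.6 to 255.8, 1.27e-08) and 19.3 (6.37 to 95.8, 3.15e-05), and *pab2 pab4* was not tested.

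The 4 mutants that rose lay above all libraries of Col-0 (2), and the call rests on this wild type. Against Col-0 (1) the log2 fold changes of AT3G22955 were -0.64 in *ahg2-1*, 0.25 in *ccr4a*, 0.31 in *fy-2* and -1.12 in *rsr1-2*. So no mutant was up, and *rsr1-2* passed both thresholds for down (adjusted p = 0.0116). Col-0 (1) itself was 41.6-fold higher than Col-0 (2) (counting interval 13.9 to 204.5, adjusted p = 7.35e-07). In *upf1-5* the 3 replicates were far apart, with 0, 60 and 6 counts, and the member was not called there. In *upf3-1* it had 122, 101 and 122 counts, above all libraries of Col-0 (1), with a log2 fold change of 0.95 that missed the fold threshold.

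AT3G26775, a pseudogene at chr3:9847232-9848665 on the minus strand, overlaps the protein-coding gene AT3G26780 on the other strand, and reads of the pair cannot be told apart without the strand. It rose in all 5 mutants of set 2. It had 12, 10 and 20 counts in Col-0 (2) and 63, 45 and 84 in *ahg2-1*, 138, 108 and 107 in *ccr4a*, 204, 127 and 120 in *pab2 pab4*, 149, 152 and 107 in *fy-2* and 122, 118 and 88 in *rsr1-2*. The log2 fold changes ran from 1.96 ± 0.266 in *ahg2-1* (adjusted p = 4.28e-05) to 2.99 ± 0.228 in *fy-2* (adjusted p = 4.34e-09).

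Here too the wild type of the set stood apart. Col-0 (1) had 150, 143 and 104 counts of AT3G26775, 24.5 RPM ± 4.34 against 1.89 ± 0.461 in Col-0 (2) (SD, n = 3), a log2 fold change of -3.30 ± 0.247 from the first to the second wild type (adjusted p = 1.48e-09). Against Col-0 (1) the 5 mutants had log2 fold changes of -1.38, -0.56, -0.40, -0.34 and -0.77 in the order given. The value of *ahg2-1* passed both thresholds for down (adjusted p = 2.14e-05). No mutant of set 1 was called, and *cstf64-2* had 684, 578 and 591 counts against 762, 703 and 590 (log2 fold change -0.38).

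**Figure D4:**
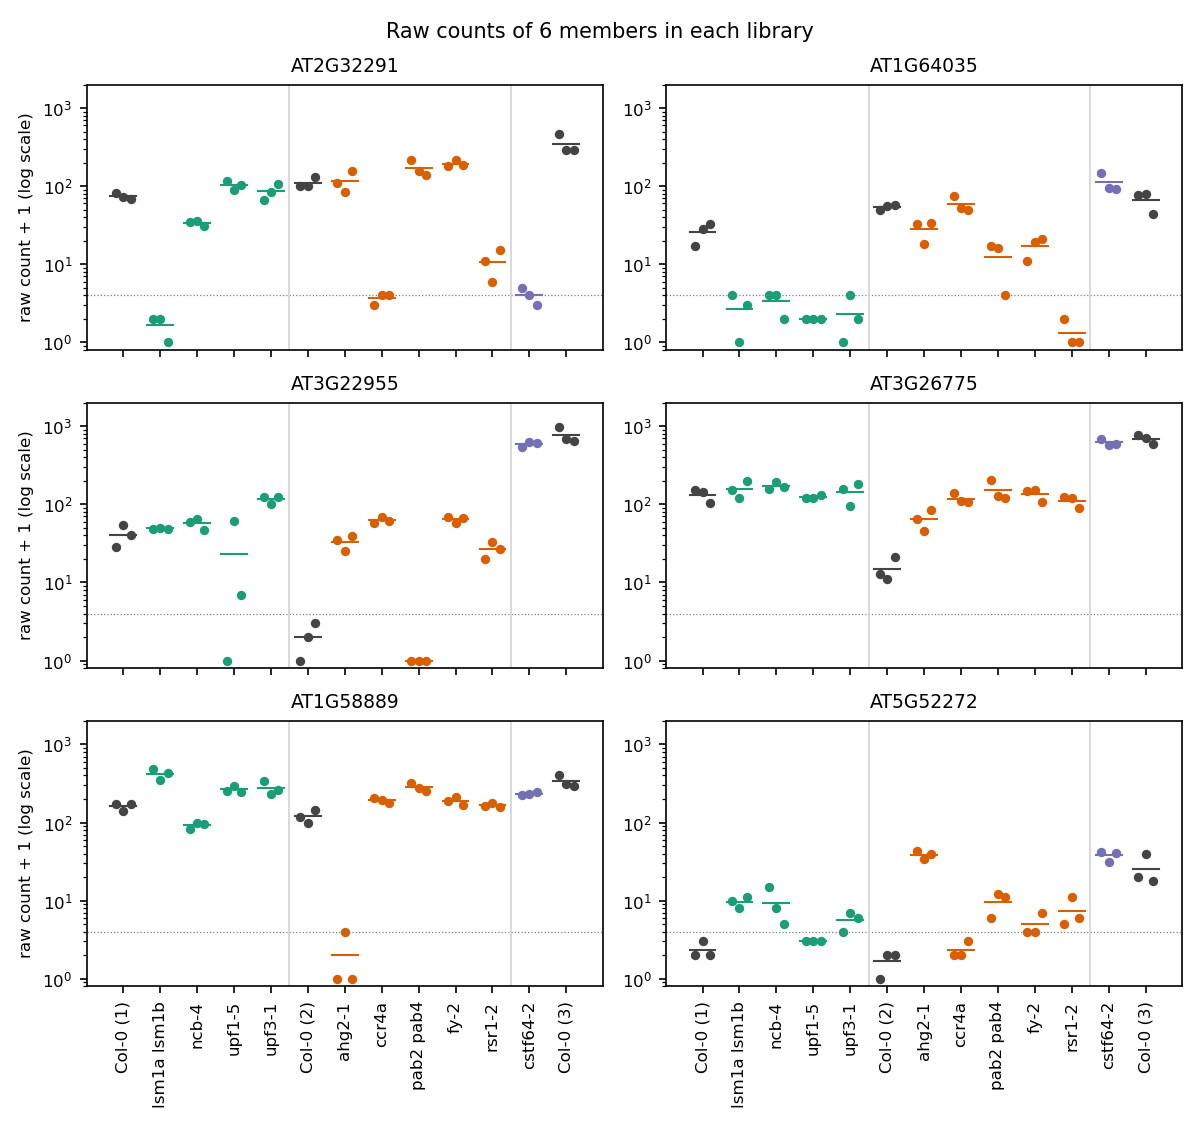
Raw counts plus 1 (y axis, log scale) of 6 members in each of the 39 libraries, by group; points are libraries, short lines are group means, grey points are Col-0 and the colours are sets 1, 2 and 3. The dotted line is the limit of 3 counts; AT2G32291 lies at or under it in *lsm1a lsm1b*, *ccr4a* and 2 libraries of *cstf64-2*, and AT1G58889 in *ahg2-1* alone among the groups.

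Among the other members without a stated parent, AT1G19560, a pseudogene at chr1:6768814-6770752 with 91.1% unique runs, had 10, 10 and 12 counts in Col-0 (2) and was called up in 4 mutants of set 2. It had 83, 47 and 70 counts in *ahg2-1* (log2 fold change 2.40 ± 0.269, adjusted p = 5.07e-06), and 40 to 87 in *ccr4a* (2.23), *pab2 pab4* (2.11) and *fy-2* (1.73), all above the wild type. *rsr1-2* had 2, 14 and 5 counts and was not called. Col-0 (1) had 38, 28 and 33 counts, so Col-0 (2) was lower by a log2 fold change of -1.68 ± 0.323 (adjusted p = 0.00177). Against Col-0 (1) all 4 calls of AT1G19560 were lost, with log2 fold changes of 0.68 in *ahg2-1*, 0.52 in *ccr4a*, 0.41 in *pab2 pab4* and 0.025 in *fy-2*. In *upf1-5* it had 17, 30 and 10 counts, a log2 fold change of -1.20 whose call was lost without *upf1-5* replicate 1 (adjusted p = 0.0664) or replicate 3 (0.0684), with the library sizes of the study (-0.77) and in DESeq2 (0.0579), and which was 0.52 against Col-0 (2).

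Calls among the retrotransposons named in the annotation lay on *SADHU5-1*, *SADHU1-2* and *RE2*. Over the 10 mutants the Sadhu members had 1 up call, of *SADHU1-2*, and 6 down calls, all of *SADHU5-1*, in 62 tests. *RE2*, the only copia member tested, had 3 up calls in 10 tests. Tests of the same member in several mutants share wild types and are not independent. In any mutant 1 Sadhu member was up and 1 down, beside 12.7% of all members and 32.1% of all genes tested that were called in either direction. TE genes with no description had 119 up calls and 29 down calls in 9095 tests. The Sadhu elements are short non-coding retrotransposons, and 7 of their 10 members were tested. *SADHU5-1* (AT4G01525, 29.4% unique runs) fell in 6 mutants. It had 30, 41 and 38 counts in Col-0 (1), 21, 28 and 26 in *lsm1a lsm1b*, 26, 22 and 17 in *upf1-5* and 20, 20 and 21 in *upf3-1*, log2 fold changes of -1.20 ± 0.277, -1.15 ± 0.28 and -1.41 ± 0.28 (adjusted p = 0.00726, 0.00816 and 0.000373). All these libraries lay below Col-0 (1). The call in *upf1-5* was lost without Col-0 (1) replicate 2 (adjusted p = 0.0539). All 3 calls were lost with the library sizes of the study (log2 fold changes -0.52, -0.73 and -0.81), and those in *lsm1a lsm1b* and *upf1-5* also with TMM factors from protein-coding genes (-0.93 and -0.99). Against Col-0 (2) the 3 were -0.81, -0.73 and -0.99 and were lost as well.

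In set 2 *SADHU5-1* (AT4G01525) had 24, 25 and 39 counts in Col-0 (2), 11, 13 and 6 in *pab2 pab4* (log2 fold change -2.02 ± 0.338, adjusted p = 0.000361), 15, 10 and 6 in *rsr1-2* (-1.89 ± 0.351, adjusted p = 0.00108) and 18, 8 and 16 in *ahg2-1* (-1.28 ± 0.316, adjusted p = 0.00708), again with no overlap, and the last of these had an adjusted p of 0.0509 in DESeq2. In *ncb-4*, *ccr4a*, *fy-2* and *cstf64-2* it was not called. *SADHU1-2* (AT1G30835, 99.7% unique runs) went the other way in *upf3-1*, with 42, 16 and 24 counts against 1, 0 and 4 (log2 fold change 3.36 ± 0.612, adjusted p = 0.000144). In *upf1-5* it had 9, 22 and 8 counts and did not pass the filter on low counts. The other 5 Sadhu members tested were called in no mutant.

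AT1G58889 and AT1G59265 are TE genes without a description on the minus strand of chromosome 1, at chr1:21797094-21801662 and chr1:21833352-21837779. They share 96.4% of their runs of 24 bases and a run of 3069 bases, and their counts differed by at most 3 in every library of sets 1 and 2, so they stand for 1 measurement. AT1G58889 had 118, 97 and 144 counts in Col-0 (2) and 0, 3 and 0 in *ahg2-1*, so that Col-0 (2) was 139.4-fold higher (counting interval 47.3 to 679.1, adjusted p = 6.71e-10). No other group of the 3 sets was near 0, and in the other mutants of set 2 the counts ran from 159 to 322. In *ncb-4* it had 81, 99 and 95 counts against 170, 139 and 174 in Col-0 (1) (log2 fold change -1.32 ± 0.154, adjusted p = 3.61e-06), and -0.77 with the library sizes of the study and -0.79 against Col-0 (2), under the fold threshold.

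*RE2* (AT4G02960) is a copia-type element with long terminal repeats that encodes a polyprotein. AT1G58889 shares 2.18% of its runs of 24 bases with it, with a longest common run of 77 bases. It had 10, 9 and 13 counts in Col-0 (2) and 48, 29 and 40 in *pab2 pab4* (log2 fold change 1.37 ± 0.312, adjusted p = 0.00481), and lay above the wild type in *ahg2-1* (35, 17 and 35) and *rsr1-2* (30, 41 and 23) as well, with log2 fold changes of 1.20 and 1.13. The call in *ahg2-1* was lost without *ahg2-1* replicate 1 (adjusted p = 0.0824), *ahg2-1* replicate 3 (0.0682) or Col-0 (2) replicate 2 (0.0587). That in *rsr1-2* was lost without *rsr1-2* replicate 1 (0.0883), *rsr1-2* replicate 2 (0.168), Col-0 (2) replicate 1 (0.0517) or Col-0 (2) replicate 2 (0.0859). Against Col-0 (1) all 3 calls of *RE2* were lost, with log2 fold changes of 0.23 in *pab2 pab4* (adjusted p = 0.621), 0.039 in *ahg2-1* (0.942) and -0.012 in *rsr1-2* (0.986), and that in *ahg2-1* was also lost in DESeq2 (0.0589).

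Of the DNA transposon relatives, *MUG1* (AT3G04605), which encodes a protein derived from a Mutator transposase, rose in *cstf64-2* only among the mutants in which it was tested. It had 34, 33 and 45 counts there and 2, 2 and 2 in Col-0 (3), a log2 fold change of 3.92 ± 0.414 (adjusted p = 3.79e-05). It lies 158 bases from the nearest protein-coding gene and 99.9% of its runs are unique. In sets 1 and 2 all groups had 3 to 19 counts. Of the 6 Mutator-related members 3 were tested, and the other 2 were not called.

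Other TE genes without a description rose in *cstf64-2*, *rsr1-2* or *ncb-4*, some of them from counts near 0. AT2G13975 had 16, 13 and 20 counts in *cstf64-2* and 0 in all libraries of Col-0 (3), at least 13.9-fold higher against a floor of 3 counts over the group (adjusted p = 0.00036). AT3G21040 had 13, 23 and 22 counts in *cstf64-2* against 0, 2 and 0, a ratio of 24.7 (counting interval 6.54 to 208.9, adjusted p = 0.000769). AT3G14500 had 14, 15 and 12 counts in *rsr1-2* and 0 in all libraries of Col-0 (2), at least 10.3-fold higher (adjusted p = 0.000162), while the other mutants of set 2 had 5 to 17 counts and were not tested. Col-0 (1) had 9, 12 and 7 counts of AT3G14500, and against it the log2 fold change in *rsr1-2* was 0.056 (adjusted p = 0.956). It also rose in *cstf64-2*, with 42, 53 and 29 counts against 13, 7 and 8 (log2 fold change 1.902 ± 0.342, adjusted p = 0.00129). AT1G77095 had 41, 49 and 60 counts in *ncb-4* against 13, 18 and 13 (1.26 ± 0.286, adjusted p = 0.00322), which was 0.85 against Col-0 (2), and 135, 226 and 129 in *cstf64-2* against 72, 42 and 48 (1.37 ± 0.244, adjusted p = 0.00122).

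Among the TE genes that rose in the nonsense-mediated decay mutants, AT2G14415 had 2, 2 and 2 counts in Col-0 (1), 16, 16 and 16 in *upf3-1* (log2 fold change 2.36 ± 0.562, adjusted p = 0.00225) and 10, 13 and 11 in *upf1-5* (2.04 ± 0.624, adjusted p = 0.0329). AT3G29265 had 18, 14 and 36 counts in Col-0 (1), 82, 89 and 103 in *upf3-1* (1.43 ± 0.272, adjusted p = 0.000239) and 62, 78 and 58 in *upf1-5* (1.13 ± 0.287, adjusted p = 0.0102). Both lay above Col-0 (1) in both mutants. Against Col-0 (2) all 4 calls were lost, with log2 fold changes of 0.47 and 0.16 for AT2G14415 and 0.46 and 0.17 for AT3G29265, *upf3-1* first. The call of AT2G14415 in *upf1-5* was lost without any 1 of the 6 libraries (adjusted p from 0.0858 to 0.132) and without the filter (0.0561), and that of AT3G29265 in *upf1-5* without Col-0 (1) replicate 2 (0.0812) or, on its fold, Col-0 (1) replicate 1 (log2 fold change 0.96).

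In set 2, AT2G13175 and AT2G13530 rose in several mutants. AT2G13175 had 6, 5 and 3 counts in Col-0 (2), 24, 22 and 16 in *ahg2-1*, 42, 18 and 16 in *pab2 pab4*, 18, 21 and 13 in *fy-2* and 31, 21 and 19 in *rsr1-2*, log2 fold changes of 1.903, 1.89, 1.57 and 1.91 (adjusted p = 0.00542, 0.00755, 0.0492 and 0.00801). The call was lost in *fy-2* without any 1 of the 6 libraries (adjusted p from 0.0586 to 0.24), in *pab2 pab4* without *pab2 pab4* replicate 1 (0.0927) and in *rsr1-2* without *rsr1-2* replicate 1 (0.0684). Against Col-0 (1) all 4 calls of AT2G13175 were lost, with log2 fold changes of 0.94 in *ahg2-1* and *pab2 pab4*, 0.61 in *fy-2* and 0.95 in *rsr1-2* (adjusted p from 0.122 to 0.419). AT2G13530 had 18, 17 and 12 counts in Col-0 (2), 64, 39 and 36 in *ahg2-1*, 56, 49 and 47 in *pab2 pab4* and 49, 63 and 49 in *rsr1-2*, log2 fold changes of 1.32, 1.18 and 1.34. Col-0 (1) had 39, 34 and 43 counts, so Col-0 (2) was lower with a log2 fold change of -1.34, and against Col-0 (1) the 3 mutants had -0.06, -0.18 and -0.02. Without Col-0 (2) replicate 3 its log2 fold change in *pab2 pab4* was 0.91.

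TE genes that fell were fewer. AT4G09565 had 42, 39 and 48 counts in *ccr4a* against 74, 87 and 105 in Col-0 (2) (log2 fold change -1.33 ± 0.191, adjusted p = 8.28e-05), which was -0.74 against Col-0 (1). AT2G19806 had 5, 5 and 11 counts in *upf3-1* against 18, 14 and 16 (-1.75 ± 0.437, adjusted p = 0.00344), and rose in *cstf64-2*, with 120, 105 and 109 against 42, 36 and 29 (1.41 ± 0.159, adjusted p = 5.81e-05). AT1G28465 fell in 4 mutants. It had 8, 7 and 13 counts in *upf3-1* (-1.57 ± 0.403, adjusted p = 0.00426) and 11, 5 and 7 in *upf1-5* (-1.67 ± 0.422, adjusted p = 0.0101), against 14, 23 and 19 in Col-0 (1), and 9, 7 and 3 in *ahg2-1* (-1.52) and 12, 6 and 10 in *pab2 pab4* (-1.25), against 15, 12 and 21. In *pab2 pab4* the highest library equals the lowest of the wild type. With the library sizes of the study the call in *upf3-1* was lost (-0.97), and so was that in *pab2 pab4* (-0.82), which had -0.98 with TMM factors from protein-coding genes. With 1 library left out, calls were lost without *upf1-5* replicate 2 (adjusted p = 0.0538) or Col-0 (1) replicate 2 (0.0797) in *upf1-5*, without *ahg2-1* replicate 3 (0.124), Col-0 (2) replicate 1 (0.0608) or Col-0 (2) replicate 3 (0.0786) in *ahg2-1*, and in *pab2 pab4* without replicate 1 (0.0732), 2 (0.109) or 3 (0.0518) of the mutant, Col-0 (2) replicate 1 (0.079) or 3 (0.083), or the filter (0.0698).

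F-box proteins select targets for ubiquitination, and their genes form a large family with many pseudogenes. Of 35 members described as F-box pseudogenes, 10 were tested in any mutant and 3 called, AT2G32291, AT1G48625 and AT5G41494. The shares called in any mutant were 12.7% of all members tested and 32.1% of all genes tested. AT1G48625 fell in *upf3-1*, with 8, 9 and 7 counts against 32, 25 and 22 in Col-0 (1) (log2 fold change -2.28 ± 0.367, adjusted p = 3.23e-05). In *upf1-5* it had 16, 6 and 16 counts (-1.44 ± 0.365, adjusted p = 0.0102), also below the wild type, a call lost without *upf1-5* replicate 2 (0.0641) or against Col-0 (2) (0.0816). AT5G41494 rose in *lsm1a lsm1b* (10, 23 and 20 counts against 1, 2 and 3, log2 fold change 2.43), *ahg2-1* (17, 13 and 16 against 2, 4 and 4, 1.95) and *cstf64-2* (42, 57 and 66 against 20, 8 and 10, 1.89), with adjusted p-values of 0.0128, 0.00623 and 0.00136. The first was lost without *lsm1a lsm1b* replicate 2 (0.0518), Col-0 (1) replicate 1 (0.0658) or Col-0 (1) replicate 2 (0.0517).

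Among the pseudogenes of receptors and kinases, 4 with a symbol of their own were called. *RLP49* (AT4G13900), of the receptor-like protein family, rose in *cstf64-2*, with 44, 30 and 26 counts against 4, 6 and 9 (log2 fold change 2.14 ± 0.38, adjusted p = 0.00121). *PSEUDOSRKA* (AT4G21370), the disabled Col-0 copy of the receptor kinase for self-incompatibility, overlaps the protein-coding gene AT4G21366 on the other strand. It had 107, 106 and 55 counts in *cstf64-2* against 15, 16 and 11 (2.43 ± 0.292, adjusted p = 9.08e-05), 7, 7 and 22 in *ahg2-1* against 26, 25 and 35 (-1.48 ± 0.365, adjusted p = 0.00722), and 89, 73 and 89 in *lsm1a lsm1b* against 19, 10 and 39 (1.21 ± 0.317, adjusted p = 0.0155). All 3 were without overlap, and the last was lost without Col-0 (1) replicate 1 (0.0707) or replicate 2 (0.0741). Against the other wild type of 14 days the calls in *ahg2-1* (-1.25, adjusted p = 0.0667) and *lsm1a lsm1b* (log2 fold change 0.94) were lost.

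*RLP18* (AT2G15040), which overlaps the long non-coding RNA gene AT2G06355, had 10, 6 and 4 counts in *upf3-1* against 12, 18 and 12 (log2 fold change -1.64 ± 0.459, adjusted p = 0.00853), a call lost without *upf3-1* replicate 3 (0.0526) or Col-0 (1) replicate 2 (0.0797), in DESeq2 (0.0781) and with the library sizes of the study (0.0666). *WAKL3* (AT1G16140), of the wall-associated kinases, had 32, 23 and 33 counts in *upf1-5* against 46, 54 and 35 (-1.01 ± 0.264, adjusted p = 0.0123), and Col-0 (2) was lower by about as much, with 14, 24 and 29 counts (-1.08 ± 0.278, adjusted p = 0.0168). Against Col-0 (2) the value of *upf1-5* was 0.10. The call in *upf1-5* was lost without *upf1-5* replicate 2 (0.0652) or Col-0 (1) replicate 2 (0.089), and its log2 fold change was -0.98 in DESeq2 and without the filter, -0.9996 with the size factors of DESeq2, -0.86 with TMM factors from protein-coding genes and -0.60 with the library sizes of the study, all short of the fold threshold. The call between the wild types was lost without Col-0 (2) replicate 1 (0.0858) or Col-0 (1) replicate 2 (0.112).

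Among the pseudogenes of other enzymes, transporters and wall proteins, *EXT11* (AT5G49080) rose most often. The annotation types it as a TE gene, its symbol is that of an extensin, a cell wall protein rich in repeats, and 35.1% of its runs are unique. It had 348, 447 and 390 counts in *cstf64-2* against 78, 84 and 95 (log2 fold change 1.97 ± 0.138, adjusted p = 2.47e-06). In set 2 it had 17, 17 and 11 counts in Col-0 (2) and 88, 58 and 40 in *ccr4a* (1.72), 92, 68 and 46 in *rsr1-2* (1.77), 65, 52 and 41 in *pab2 pab4* (1.29) and 43, 61 and 29 in *ahg2-1* (1.36). In set 1 the wild type was spread from 9 to 48, and *lsm1a lsm1b* (82 to 127) and *ncb-4* (76 to 95) lay above it, with 1.52 and 1.40. The call was lost in *lsm1a lsm1b* without Col-0 (1) replicate 1 (adjusted p = 0.0689) or 2 (0.0911), in *ncb-4* without Col-0 (1) replicate 2 (0.059) or, on its fold, replicate 1 (log2 fold change 0.99), in *ahg2-1* without *ahg2-1* replicate 2 (0.0824) or Col-0 (2) replicate 3 (0.0774), and in *pab2 pab4* on its fold without Col-0 (2) replicate 3 (log2 fold change 1.00, before rounding under the threshold). Against Col-0 (1) all 4 calls in set 2 were lost, with log2 fold changes of 0.66 in *ahg2-1*, 1.03 in *ccr4a*, 0.61 in *pab2 pab4* and 1.08 in *rsr1-2* (adjusted p from 0.0625 to 0.328). In DESeq2 the calls in *lsm1a lsm1b* (0.135) and *ncb-4* (0.235) were lost.

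AT5G52272, a pseudogene related to the cytochrome b reductases ACYB-1 and ACYB-2 at chr5:21223178-21223844 (unique runs only), was high in *ahg2-1* within set 2. It had 42, 33 and 38 counts there against 0, 1 and 1 in Col-0 (2), a ratio of 48.5 (counting interval 13.1 to 405.4, adjusted p = 1.2e-06). The other mutants of set 2 had 1 to 11 counts. AT2G19200, a pseudogene without a description, had 39, 28 and 36 counts in *ahg2-1* and 31, 14 and 23 in *ccr4a* against 0, 0 and 1 in Col-0 (2), ratios of 88.4 (counting interval 15.5 to 3526, adjusted p = 1.64e-06) and 55.4 (9.62 to 2222, adjusted p = 4.24e-05). AT1G21490 had 17, 14 and 27 counts in *ahg2-1* and 18, 16 and 13 in *ccr4a* against 1, 2 and 1 (log2 fold changes 3.52 ± 0.562 and 3.15 ± 0.588, adjusted p = 0.000208 and 0.00307). Its call in *ccr4a* was lost without Col-0 (2) replicate 3 (0.0556). Its call in *ccr4a* also missed the threshold in DESeq2 (0.0857). Col-0 (1) had 15, 6 and 14 counts of AT1G21490, and against it the log2 fold changes were 0.40 in *ahg2-1* and 0.042 in *ccr4a* (adjusted p = 0.537 and 0.963), so both calls rest on the low counts of Col-0 (2). The calls of AT5G52272 and AT2G19200 were kept against Col-0 (1).

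AT3G06433, described as a pseudogene of the nodulin MtN3 family of sugar transporters, was one of the more abundant members that moved. It had 257, 238 and 314 counts in *pab2 pab4* against 446, 448 and 687 in Col-0 (2) (log2 fold change -1.43 ± 0.166, adjusted p = 4.08e-06, and -0.90 against Col-0 (1), under the fold threshold), and 1420, 1775 and 1469 in *cstf64-2* against 407, 406 and 330 (1.80 ± 0.113, adjusted p = 1.13e-06). Neither overlapped with its wild type. It overlaps AT3G00210, an RNA gene on the same strand, and 42.6% of its runs are unique. *ZIP8* (AT5G45105), named after a family of zinc transporters, had 147, 207 and 163 counts in *cstf64-2* against 77, 73 and 66 (1.03 ± 0.153, adjusted p = 0.000374), a call lost on its fold without *cstf64-2* replicate 2 (0.86) or Col-0 (3) replicate 3 (0.98), in DESeq2 (0.97), without the filter (0.96) and with TMM factors from protein-coding genes (0.77).

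In *cstf64-2*, AT2G35570 had 36, 28 and 56 counts against 1, 0 and 0 in Col-0 (3), a ratio of 102.3 (counting interval 18.0 to 4073, adjusted p = 5.99e-05). This pseudogene overlaps the protein-coding gene AT2G35555 on the same strand, and in sets 1 and 2 it had 0 to 4 counts. Pseudogenes also fell there: AT2G15016, of a methyl-CpG-binding domain gene, had 3, 6 and 4 counts against 26, 25 and 24 (log2 fold change -2.72 ± 0.372, adjusted p = 0.000218), and AT1G34680 12, 6 and 5 against 39, 43 and 29 (-2.48 ± 0.35, adjusted p = 0.000264). AT2G24750 had 63, 47 and 52 against 107, 82 and 89 (-1.01 ± 0.159), lost on its fold without *cstf64-2* replicate 2 (-0.94) or Col-0 (3) replicate 1 (-0.92), with the size factors of DESeq2 (-0.99) and with the library sizes of the study (-0.77). In *fy-2* AT2G24750 had 9, 10 and 12 counts against 19, 16 and 26 (-1.24 ± 0.359, adjusted p = 0.0473), a call lost without any 1 of the 6 libraries (0.0581 to 0.205), without the filter (0.0805), with TMM factors from protein-coding genes (0.0715) and with the library sizes of the study (0.114).

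Of the remaining members chosen by size or by the number of mutants, AT3G18145 rose in *upf3-1*, with 33, 34 and 38 counts against 7, 6 and 6 in Col-0 (1) (log2 fold change 1.87 ± 0.366, adjusted p = 0.000319). It overlaps the miRNA gene AT3G03625 on the same strand. In *upf1-5* (13, 37 and 25) and *ncb-4* (15, 25 and 21) it lay above the wild type too (1.56 and 1.16), calls lost without *upf1-5* replicate 2 (0.176), Col-0 (1) replicate 2 (0.0761) or Col-0 (1) replicate 3 (0.053), and in *ncb-4* without *ncb-4* replicate 2 (0.18), *ncb-4* replicate 3 (0.135) or Col-0 (1) replicate 1 (0.0953), 2 (0.11) or 3 (0.118), without the filter (0.0799) and in DESeq2 (0.212). Against Col-0 (2) the calls of AT3G18145 in *upf1-5* (0.79, adjusted p = 0.143) and *ncb-4* (0.39, adjusted p = 0.413) were lost. AT3G55258, a pseudogene similar to self-incompatibility genes, rose in *lsm1a lsm1b* (78, 47 and 61 counts against 17, 16 and 10, 1.43 ± 0.284, adjusted p = 0.00286), *ncb-4* (52, 48 and 29, 1.06) and *upf3-1* (53, 40 and 55, 1.19). The call in *ncb-4* was lost without *ncb-4* replicate 1 (0.0777), *ncb-4* replicate 2 (0.0549) or Col-0 (1) replicate 3 (0.0698), and that in *upf3-1* on its fold without Col-0 (1) replicate 3 (0.99). Against Col-0 (2) all 3 calls of AT3G55258 were lost, with log2 fold changes of 0.46, 0.13 and 0.26, and that in *ncb-4* also in DESeq2 (0.0726).

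Small pseudogenes with few counts made up the rest. AT1G31274, of a beta-galactosidase, had 12, 18 and 24 counts in *lsm1a lsm1b* against 2, 0 and 4 in Col-0 (1) (log2 fold change 2.44 ± 0.65, adjusted p = 0.0164), and AT4G14135 11, 17 and 25 against 2, 4 and 1 (2.20 ± 0.59, adjusted p = 0.0172). Neither overlapped with the wild type. The call of AT1G31274 was lost without *lsm1a lsm1b* replicate 3 (0.0762), Col-0 (1) replicate 1 (0.0609) or Col-0 (1) replicate 2 (0.0698), and against Col-0 (2) (0.52, adjusted p = 0.354), and that of AT4G14135 without *lsm1a lsm1b* replicate 3 (0.0963), Col-0 (1) replicate 1 (0.0714) or Col-0 (1) replicate 3 (0.0815). AT1G45040 had 6, 4 and 8 counts in *ahg2-1* against 10, 21 and 16 in Col-0 (2) (-1.59 ± 0.437, adjusted p = 0.0141), lost without *ahg2-1* replicate 1 (0.0502) or Col-0 (2) replicate 2 (0.123).

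Some members cannot be measured apart from each other. In each of sets 1 and 2, 21 members in 9 groups with over 30 counts had the same count as another member in every library. AT3G26530 and AT5G44890 are such a pair, with 412, 432 and 386 counts each in Col-0 (1), and AT1G08735, AT1G21040, AT3G26525 and AT5G44875 form a group of 4 on chromosomes 1, 3 and 5, with 403, 326 and 371 each. Other such groups were AT3G22234 with AT3G22238, AT5G36660 with AT5G36737 and AT5G36734 with AT5G36830. In set 3 there were 0 such groups over 30 counts. In 8 of the 9 groups none of the runs of 24 bases was unique, and none of the calls named here changed when such members were counted as 1.

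The wild types of 14 days differed at 20 members, and some of the calls in set 2 lie at these members. Of the members up in *fy-2*, 5 of 6 were also lower in Col-0 (2) than in Col-0 (1) by the same test, and so were 6 of 20 in *ahg2-1*, 6 of 23 in *pab2 pab4*, 3 of 8 in *ccr4a* and 3 of 15 in *rsr1-2*. Against Col-0 (1), 0 of 23 members up in *pab2 pab4*, 0 of 6 in *fy-2*, 1 of 15 in *rsr1-2*, 4 of 20 in *ahg2-1* and 3 of 8 in *ccr4a* were up again. Of the members up in set 1, 7 of 16 in *lsm1a lsm1b*, 2 of 7 in *ncb-4*, 0 of 5 in *upf1-5* and 19 of 38 in *upf3-1* were also up against Col-0 (2). These sets were sequenced apart, so that a difference between sets and one between plants cannot be told apart.

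Small RNAs on the genes of the silencing pathway itself were few. Of 27 genes for DNA methylation, its removal and siRNA synthesis, 1 to 4 were tested in each mutant. In *upf3-1* 1 of 4 tested was up, beside 4.39% of all genes. In *cstf64-2* 1 of 4 was up and 1 down, beside 13.6% and 3.3% of all genes. *DCL2*, a Dicer for siRNAs of 22 bases, had 22, 12 and 15 counts in *upf3-1* against 3, 2 and 1 in Col-0 (1) (log2 fold change 2.38 ± 0.58, adjusted p = 0.00273). In *cstf64-2* *DRD1*, a chromatin remodeller of the methylation pathway, had 27, 33 and 42 counts against 4, 3 and 1 (3.40 ± 0.453, adjusted p = 0.000185), and *DCL4*, the Dicer for trans-acting siRNAs, 13, 15 and 8 against 45, 21 and 22 (-1.51 ± 0.381, adjusted p = 0.00952). None of these libraries overlapped with the wild type, and small RNA counts say nothing of the mRNA level of these genes.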

How the data were processed

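Small RNA-seq of 39 libraries was analysed from the processed values. The authors deposited a raw count per Araport11 gene and library, without normalization, and the lines of the counter for unassigned reads were left out. Per the labels and the methods of the study, adapters were removed with cutadapt 1.9, reads of 15 bases or more were mapped to TAIR10 with Bowtie 1.0.0 without a mismatch, those with over 10 places were discarded, alignments were sorted with SAMtools 1.1, and HTSeq 0.6.0 counted reads on exons. The study counted with and without strand, and which setting made the deposited counts is not given in the sources used here. The counts carry no read length, so siRNAs and fragments of longer RNA cannot be told apart.

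Annotation and sequences came from RefSeq (TAIR10.1), where 36899 genes matched by identifier and 285 genes of the organelles did not. The members, gene lists and tests were chosen with earlier results of these data known. The 3 libraries of each mutant were tested against the 3 of its wild type with the quasi-likelihood test of edgeR 4.0.16 in R 4.3.3, with TMM factors, the filterByExpr filter on low counts and p-values adjusted by Benjamini and Hochberg across the genes that passed it. The SE of a log2 fold change is its size over the square root of the F statistic, an approximation. Adjusted p-values given for named members come from this fit. Ratios of summed counts were used where a group had 3 counts or fewer, with exact 95% intervals, or as lower bounds against a floor of 3 counts over the group at 0. Reads carry no molecular identifiers, so these intervals and floors cover counting error only. Runs of 24 bases were counted over both strands of the 5 nuclear chromosomes.

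Named are up to 3 members up and 3 down with the largest change per comparison among those called without overlap, the 6 with the highest mean RPM over the wild types, up to 6 called in 1 direction in at least 3 mutants of a set, called members with a symbol of their own, and groups with identical counts. Members outside this rule are those that met the description of near-off and on, and the genes of the silencing pathway. The alternatives were the size factors of DESeq2, TMM factors from protein-coding genes, the library sizes given by the study, no filter, DESeq2 1.42.0, the replicate number as a block, identical members as 1 gene, the other wild type of 14 days, and each library left out in turn. The main edgeR test was checked on simulated data for each wild type. It recovered 71% to 92% of the genes changed by 2.5-fold or 4-fold there, with 1 to 9 false calls. Whether these figures hold for the measured libraries, or for members with few counts, was not tested. No check on simulated data is given for the alternatives. Tables and plots were made with Python 3.11.15, numpy 2.4.6, pandas 2.3.3, scipy 1.17.1 and matplotlib 3.10.9.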

Additional observations from a re-analysis of the deposited data

How the results depend on the processing

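The number of members called, up and down together, depended mostly on the scaling. With TMM factors from protein-coding genes it was 26 in *ncb-4*, 50 in *lsm1a lsm1b*, 22 in *upf1-5*, 89 in *upf3-1*, 54 in *ahg2-1*, 81 in *pab2 pab4*, 51 in *rsr1-2* and 95 in *cstf64-2*. With the library sizes of the study it was 142 in *ncb-4*, 342 in *lsm1a lsm1b*, 60 in *upf1-5*, 248 in *upf3-1*, 54 in *ahg2-1*, 167 in *pab2 pab4*, 14 in *fy-2* and 86 in *rsr1-2*. Against the other wild type of 14 days it was 35 in *ncb-4*, 57 in *lsm1a lsm1b*, 48 in *upf1-5* and 24 in *ccr4a*. DESeq2 called 8 in *upf1-5*, 4 in *fy-2* and 10 in *rsr1-2*, and of the members called by edgeR in these mutants it gave no adjusted p for 5 of 13, 4 of 9 and 12 of 18. The size factors of DESeq2, no filter and identical members as 1 gene kept all 11 counts within 1.5 times. With 1 library left out the counts ran from 11 to 16 in *ncb-4*, 10 to 21 in *lsm1a lsm1b*, 6 to 21 in *upf1-5*, 44 to 61 in *upf3-1*, 26 to 36 in *ahg2-1*, 9 to 10 in *ccr4a*, 25 to 39 in *pab2 pab4*, 4 to 10 in *fy-2*, 15 to 32 in *rsr1-2*, 52 to 60 in *cstf64-2* and 15 to 21 in Col-0 (2) over Col-0 (1).

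The summed level of the members relative to the wild type is given here for all counts on genes without TMM, for counts on genes other than rRNA and for the library sizes of the study. The ratios were 1.752, 1.621 and 1.679 in *upf3-1*, 1.477, 1.447 and 1.397 in *upf1-5*, 1.637, 1.568 and 1.528 in *ncb-4*, and 1.977, 2.095 and 1.809 in *lsm1a lsm1b*. They were 1.318, 1.361 and 1.25 in *ahg2-1*, 1.231, 1.216 and 1.23 in *ccr4a*, 1.617, 1.537 and 1.619 in *pab2 pab4*, 1.361, 1.416 and 1.304 in *fy-2*, and 1.485, 1.408 and 1.494 in *rsr1-2*. For *cstf64-2* they were 1.031, 1.068 and 1.124, and for Col-0 (2) over Col-0 (1) 0.8214, 0.8384 and 0.7907. The cause of these shifts was not tested.

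The main test did not pair samples by replicate number. For samples with the same number, the correlations of their deviations from the group means ran from -0.142 to 0.274, and no comparison had all 3 over 0.1. The highest were those of *cstf64-2* replicates 2 (0.195) and 3 (0.274), and whether the samples of set 3 were paired cannot be told from these values. With the replicate number as a block the members called were 13 in *ncb-4*, 16 in *lsm1a lsm1b*, 13 in *upf1-5*, 50 in *upf3-1*, 26 in *ahg2-1*, 10 in *ccr4a*, 27 in *pab2 pab4*, 7 in *fy-2*, 17 in *rsr1-2*, 55 in *cstf64-2* and 18 between the wild types, and 5 of the 115 named calls missed the threshold, with adjusted p-values from 0.0532 to 0.0629.

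Of the 115 named calls on 46 members, 78 were kept when any 1 library was left out. The size factors of DESeq2 ended 2, TMM factors from protein-coding genes 8, the library sizes of the study 14, no filter 7 and identical members as 1 gene 0. DESeq2 ended 12 of the 89 for which it gave an adjusted p. Against the other wild type, 35 of 90 calls were kept, 42 were lost and 13 changed direction. Both thresholds were passed in the new direction by AT3G22955 in *rsr1-2* (adjusted p = 0.0116) and AT3G26775 in *ahg2-1* (2.14e-05). Those 13 were *WAKL3* (AT1G16140, 0.10) and AT1G19560 (0.52) in *upf1-5*, AT2G13530 in *ahg2-1* (-0.056), *pab2 pab4* (-0.18) and *rsr1-2* (-0.021), AT3G22955 in *ahg2-1* (-0.64) and *rsr1-2* (-1.12), AT3G26775 in *ahg2-1* (-1.38), *ccr4a* (-0.56), *pab2 pab4* (-0.40), *fy-2* (-0.34) and *rsr1-2* (-0.77), and *RE2* (AT4G02960) in *rsr1-2* (-0.012), all log2 fold changes whose cause was not tested. Of the 1895 members 691 had too few counts to be tested in any mutant, among them the 84 without a count in any library. Whether depth or a lack of small RNAs set this number was not tested.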
